A study of Mus musculus with 8 samples.

Results

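A region of Nanog and Nr5a2 only was one at which a Flag CUT&Tag peak of Nanog and one of Nr5a2 met, with no peak of Oct4 or Sox2. Joining all peaks of the 8 deposited lists that shared 1 bp or more gave 306466 regions. A region was counted when it held a peak of Nanog or NanogBiD, a peak of Nr5a2 or Nr5a2BiD, and no peak of the 4 Oct4 and Sox2 libraries. The rule found 7703 such regions, 2.51% of all regions. They were chosen on these peak calls, so the presence of both factors and the absence of the others describe the choice and were not tested.

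The 8 libraries were made from fibroblasts of mouse embryos (MEFs) 3 days into reprogramming, which converts somatic cells into pluripotent stem cells. CUT&Tag uses an antibody to tether the transposase Tn5 to chromatin, so that DNA beside the bound protein is cut, tagged and sequenced. Here it recognised Flag, a tag carried by the factor that a retrovirus delivered. For Nanog, Nr5a2, Oct4 and Sox2 there was a library of the native protein and another of a BiD fusion. BiD is the part of SS18 that contacts BRG1, the motor subunit of the chromatin remodeller BAF. The groups used for the members were therefore native Nanog, NanogBiD, native Nr5a2 and Nr5a2BiD, and the Oct4, Oct4BiD, Sox2 and Sox2BiD libraries served to exclude regions. The labels do not say which other factors the same cells received, so a library stands for the tagged factor in a mixture that is not given. Each group had 1 library and 1 peak list, which may or may not hold pooled replicates. No difference between libraries could therefore be tested, and the 95% intervals given are exact ones that cover counting error over regions or peaks only. The peak lists hold no measure of expression, so the labelled cell type could not be checked against its markers.

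Nanog is a homeodomain protein of the pluripotency network, and its preferred site contains the homeodomain core ATTA. Nr5a2, also called LRH-1, is an orphan nuclear receptor that binds DNA as a monomer, at a nuclear receptor half-site extended by a few bases on its 5′ side. It is known in liver and gut for control of bile acid and cholesterol genes and in reprogramming as a factor that can take the place of Oct4. Fibroblast enhancers are commonly bound by AP-1, TEAD and RUNX proteins, whose motifs were searched beside those of the 4 tagged factors.

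The sequences of members are shown first, because DNA sequence played no part in the choice. The NR5A motif was searched as CCAAGGCCA, CCAAGGTCA, TCAAGGCCA and TCAAGGTCA, the NANOG motif as GCCATTA, and the AP-1 motif as TGACTCA or TGAGTCA, all on both strands. NR5A spellings that end in GGCCA can share their last 4 bases with the first 4 of the NANOG motif, and the other motifs searched (TEAD, RUNX, octamer, SOX and CTCF) are given further on. Each sequence is the plus strand of mm10 (GRCm38), 5′ to 3′, from 50 bases before to 50 bases after a summit, in lower case with the matches in capitals. The first set holds the strongest of the named members with an NR5A match at an Nr5a2 summit, leaving out 1 chromosome, from which no sequence is shown, and exons of untranslated regions, where strength is the lower of the best Nanog and the best Nr5a2 score percentile. Named members were the strongest over all, the strongest of each combination of forms and the strongest near each gene of fixed lists. The lines give the nearest protein-coding gene and the position.
AA467197, chr2:122654896-122654996, Nr5a2: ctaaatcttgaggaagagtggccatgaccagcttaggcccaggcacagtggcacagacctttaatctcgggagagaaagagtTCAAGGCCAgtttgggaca
Thy1, chr9:43989732-43989832, Nr5a2: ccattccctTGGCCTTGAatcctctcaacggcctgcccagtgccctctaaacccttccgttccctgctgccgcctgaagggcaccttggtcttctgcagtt
Rtp3, chr9:110993314-110993414, Nr5a2: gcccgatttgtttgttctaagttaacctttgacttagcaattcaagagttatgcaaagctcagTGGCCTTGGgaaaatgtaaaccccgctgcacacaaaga
Rnaseh2a, chr8:84959941-84960041, Nr5a2BiD: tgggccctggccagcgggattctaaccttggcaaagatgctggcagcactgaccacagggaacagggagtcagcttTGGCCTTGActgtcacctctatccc
In these 4 windows the NR5A match lay 3 times on the minus strand, and once on the plus strand. The AA467197 window was 17.4 kb from the start site and intergenic, with 40 tags at the native Nr5a2 summit. The Thy1 window was intergenic as well, 53.7 kb from Thy1, a fibroblast surface marker, with 32 tags. The Rtp3 window lay in an intron, 2.86 kb from the start site, with 24 tags, and the Rnaseh2a window in a promoter, 1.84 kb from the start site, with 51 tags in Nr5a2BiD. None of the 4 held a NANOG or AP-1 match.

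The second set holds, with the same exclusions, the strongest of the named members with a NANOG match at a Nanog summit, and the third those with an AP-1 match.
Tfcp2l1, chr1:118716432-118716532, Nanog: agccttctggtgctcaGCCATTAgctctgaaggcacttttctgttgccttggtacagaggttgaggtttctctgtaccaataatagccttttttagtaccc
Tbx3, chr5:119609491-119609591, NanogBiD: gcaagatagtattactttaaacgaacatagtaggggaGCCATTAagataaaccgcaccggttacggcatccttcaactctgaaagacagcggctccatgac
Fndc3b, chr3:27718982-27719082, Nr5a2: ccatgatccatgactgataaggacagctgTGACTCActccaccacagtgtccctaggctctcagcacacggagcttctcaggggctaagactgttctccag
Ing1, chr8:11570196-11570296, Nr5a2BiD: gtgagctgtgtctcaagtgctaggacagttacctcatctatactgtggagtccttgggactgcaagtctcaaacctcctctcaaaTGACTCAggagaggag
Mpdz, chr4:81788732-81788832, NanogBiD: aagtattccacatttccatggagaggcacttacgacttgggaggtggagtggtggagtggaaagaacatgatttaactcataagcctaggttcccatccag
The Tfcp2l1 window, 88.6 kb from the start site of Tfcp2l1, a transcription factor of naive pluripotency, carried a native Nanog summit of 13 tags. The Tbx3 window lay in an intron 61.1 kb from the start site of Tbx3, a T-box factor of naive pluripotency, with 25 tags in NanogBiD. Both entered the named members through a list of pluripotency genes, so their nearness to such genes belongs to the choice. Their strengths were 37.7 (Tfcp2l1) and 12.7 (Tbx3), and 201 members had a NANOG match at a Nanog summit. The Fndc3b window (intergenic, 7.71 kb) and the Ing1 window (intergenic, 11.3 kb) carried AP-1 matches at summits of 42 tags in Nr5a2 and 40 tags in Nr5a2BiD. The Mpdz window, the strongest named member with none of the motifs searched, was intergenic, 346 kb from Mpdz, with 34 tags in NanogBiD.

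An NR5A match at an Nr5a2 summit and a NANOG match at a Nanog summit occurred together in 21 members, and in 1 of these the matches shared bases. The member shown was chosen after the values were seen, and its window runs from 50 bases before the first summit to 50 after the last.
Tfcp2l1, chr1:118756216-118756317, NanogBiD and Nr5a2: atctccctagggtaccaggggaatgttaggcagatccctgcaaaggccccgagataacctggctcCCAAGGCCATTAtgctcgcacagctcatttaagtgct
This member, 128 kb from Tfcp2l1, was the one whose matches shared bases, and its capitals run through both motifs on the plus strand. Its region ran from 118755862 to 118756981 on chromosome 1 and was intergenic. The NanogBiD and the Nr5a2 summit were 1 bp apart and 29 tags high each.

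Members made up 23.4% of the 32911 regions at which Nanog and Nr5a2 peaks met, and the other 25208 of those also held an Oct4 or Sox2 peak. They were 8.20% of all regions with a Nanog peak and 6.62% of all with an Nr5a2 peak. Among regions free of Oct4 and Sox2 peaks, 19.9% of those with a Nanog peak and 10.3% of those with an Nr5a2 peak were members. The remaining regions of 1 factor numbered 30995 for Nanog alone and 66850 for Nr5a2 alone, and these are used below for comparison. The other combinations of exactly 2 factors held between 5938 regions (Nr5a2 and Oct4) and 14388 regions (Nanog and Sox2). The lists themselves ranged from 54794 peaks for native Oct4 to 120594 for Sox2BiD, and a count of regions moves with the size of the lists it excludes. With peaks of a score of at least 100 only, there were 4561 members, and with the 20000 highest-scoring peaks of each list 2128.

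Many members stood close to the limits of the rule. The lower of the best Nanog and best Nr5a2 scores (10 times the negative log10 of the caller's p-value, at least 50 in every list) had a median of 83.5. It was under 60 in 1604 members (20.8%), at least 100 in 2890 (37.5%) and at least 200 in 660. Just outside, 886 of the 25208 regions excluded for an Oct4 or Sox2 peak (3.51%) had a highest score under 60 for those factors, the lowest being 50.02. The Nanog and Nr5a2 peaks of a member overlapped by at least 1 bp, with a median of 622 bp and 139 members under 50 bp, and in 89.5% the overlap covered at least 50% of the shorter peak. The nearest Oct4 or Sox2 peak lay at a median of 2.60 kb from the member. It was within 1000 bp of 1830 members (23.8%), within 100 bp of 190, directly adjoining in the closest case, and beyond 10 kb of 748 (9.71%). Members were 375 to 6879 bp wide, with a median of 1212 bp, and 1581 (20.5%) rested on exactly 2 peaks.

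All 9 combinations of native and BiD forms occurred among the members. Peaks of all 4 Nanog and Nr5a2 libraries were found in 2417 members (31.4%, 30.3 to 32.4). Members with only native peaks of both factors numbered 352, and members with only BiD peaks of both numbered 147. Native Nanog and Nr5a2BiD, without the other forms, met in 299 members, and NanogBiD and native Nr5a2 in 786.

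**Figure D1:**
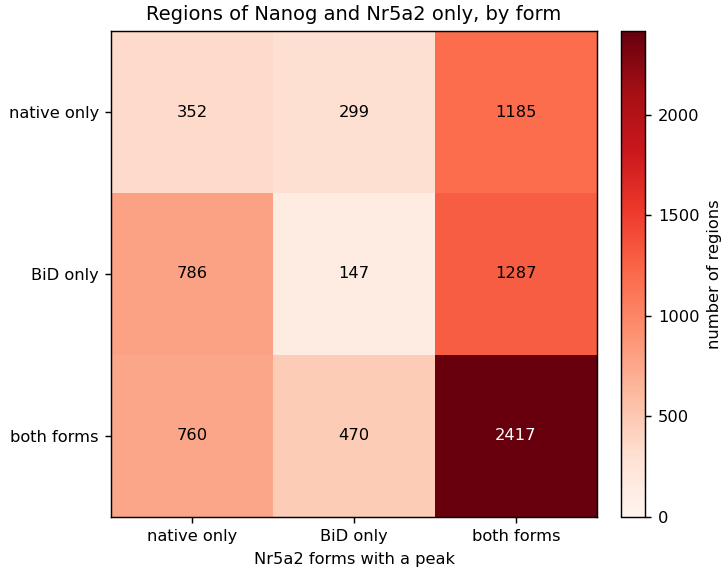
Number of regions of Nanog and Nr5a2 only in each combination of Nanog forms (vertical axis) and Nr5a2 forms (horizontal axis), with the colour scale in regions. The cell with both forms of both factors is the fullest, at 2417 regions, and the cell with BiD forms alone the emptiest, at 147.

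Both Nanog forms had a peak in 3647 members (47.3%, 46.2 to 48.5), fewer than the 55.8% of all regions with a Nanog peak. Nanog alone gave 37.4%, and regions of both factors with Oct4 or Sox2 gave 77.9%. Both Nr5a2 forms had a peak in 4889 members (63.5%, 62.4 to 64.5), more than the 55.5% of all regions with an Nr5a2 peak. Nr5a2 alone gave 46.1%, and regions of both factors with Oct4 or Sox2 gave 76.4%. Members with Nanog in 1 form had it as native Nanog in 1836 and as NanogBiD in 2220. Members with Nr5a2 in 1 form had it as native Nr5a2 in 1898 and as Nr5a2BiD in 916. The native Nr5a2 list was the longer of the Nr5a2 lists, with 108030 peaks against 76217, whereas the Nanog lists were of similar length, with 73465 and 75769.

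The peaks of members were of modest height. Over the members, native Nanog summits had from 6 to 87 tags with a median of 15, and NanogBiD summits from 8 to 85 with a median of 18. Native Nr5a2 summits had from 8 to 106 tags with a median of 22, and Nr5a2BiD summits from 9 to 101 with a median of 21. Tags are read pileups that were not scaled to depth. Read totals, which the lists do not hold, were not used here, so the score percentile within a library was used to compare kinds of region. The median percentile of member peaks was 41.1 in Nanog, 41.3 in NanogBiD, 54.5 in Nr5a2 and 52.5 in Nr5a2BiD. The Nanog peaks of members thus ranked below the middle of their lists and the Nr5a2 peaks slightly above it.

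**Figure D2:**
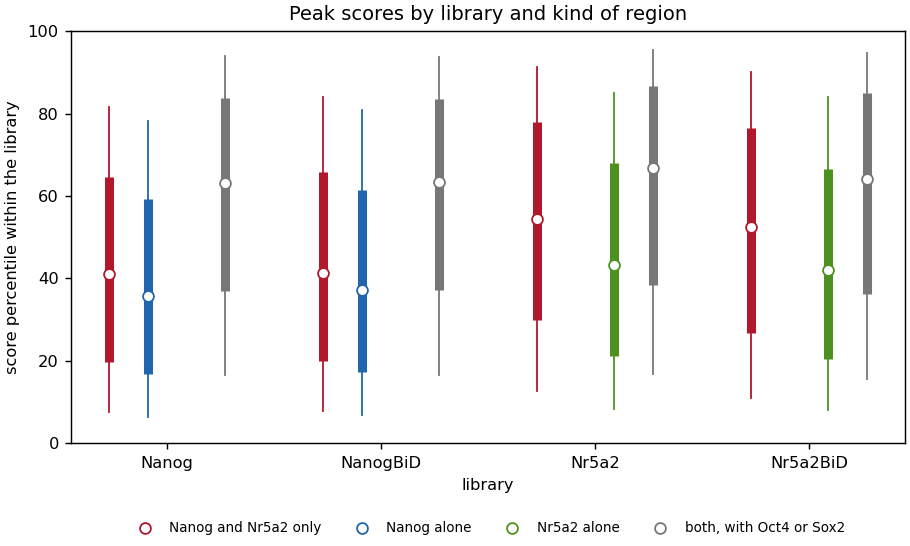
Score percentile within each library (vertical axis, 0 to 100) of the peaks in 4 kinds of region, for the Nanog and Nr5a2 libraries (horizontal axis), with circles at the median, thick bars over the middle 50% and thin lines from the 10th to the 90th percentile. Peaks of regions of Nanog and Nr5a2 only (median 41.1 to 54.5) lie above those of 1 factor alone (35.7 to 43.4) and below those with Oct4 or Sox2 (63.3 to 66.8).

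In regions of 1 factor alone the medians were 35.7 in Nanog, 37.2 in NanogBiD, 43.4 in Nr5a2 and 42.2 in Nr5a2BiD. In regions with Oct4 or Sox2 as well they were 63.3, 63.5, 66.8 and 64.1 in the same order. Only 4.66% of native Nanog and 5.71% of NanogBiD peaks in members were in the top 10% of their list, against 11.3% of native Nr5a2 and 10.2% of Nr5a2BiD peaks. Within members, a factor seen in 1 form had lower peaks than a factor seen in both. The median percentile was 24.0 for native Nanog without NanogBiD and 51.8 where NanogBiD was present too, and 25.8 against 53.2 for NanogBiD. It was 28.7 against 65.2 for native Nr5a2 and 22.4 against 59.4 for Nr5a2BiD. Where both forms were present, the NanogBiD percentile was above the native one in 51.7% of 3647 members, and the Nr5a2BiD percentile above the native one in 40.5% of 4889.

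The 10 strongest members, which were also the 10 strongest with peaks of all 4 libraries, are given by their nearest protein-coding gene. Of these 10 regions, 6 were intergenic, 3 were in introns and 1 was at a promoter. The strongest lay on chromosome 16 from 64883795 to 64886413, 32.4 kb from Cggbp1, which encodes a protein that binds CGG repeats. Its summits had 28 tags in Nanog, 74 in NanogBiD, 73 in Nr5a2 and 66 in Nr5a2BiD, with the fewest in native Nanog. As tags are not scaled to depth, an order of libraries by tags, here and below, describes the counts only. The Pdzrn4 member, 221 kb from the gene, had 36, 18, 29 and 48 tags in the same order, with NanogBiD the lowest. The Pcgf5 member, 57.2 kb from a gene of the Polycomb group, had 41, 44, 72 and 73 tags, with both Nr5a2 libraries above both Nanog libraries. The reverse held at the Sema5a member, in an intron of this axon guidance gene, with 54, 58, 38 and 47 tags. The Sema5a member also ended 0.073 kb from an Oct4 or Sox2 peak, the smallest such distance among the 10.

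**Figure D3:**
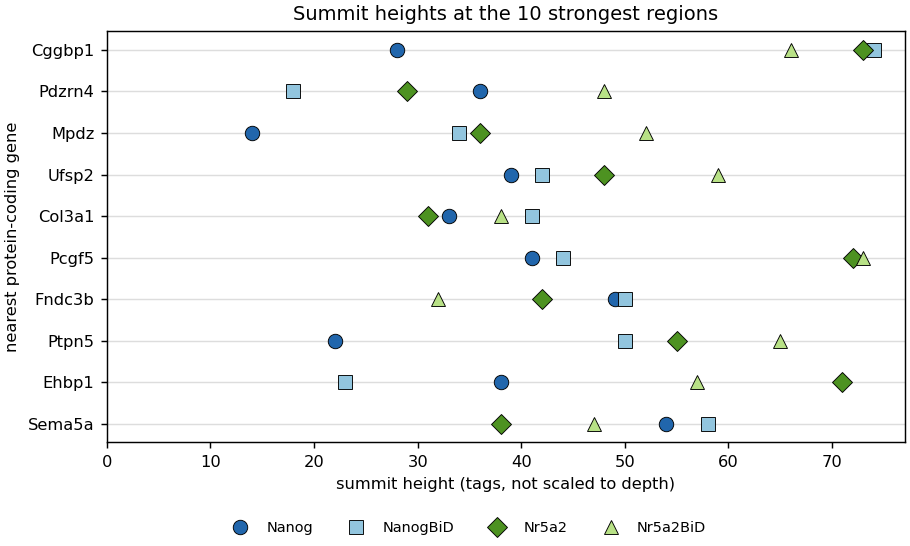
Summit height in tags, not scaled to depth (horizontal axis), in the Nanog, NanogBiD, Nr5a2 and Nr5a2BiD libraries at the 10 strongest regions of Nanog and Nr5a2 only, named by the nearest protein-coding gene (vertical axis, strongest on top). Heights run from 14 tags (Nanog, Mpdz) to 74 tags (NanogBiD, Cggbp1), and no library is the highest throughout.

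The Mpdz member had 14, 34, 36 and 52 tags. The Ufsp2 member, in an intron, had 39, 42, 48 and 59 tags. The Col3a1 member, 164 kb from this fibrillar collagen gene, had 33, 41, 31 and 38 tags, the most even of these sets. The Fndc3b member had 49, 50, 42 and 32 tags, with Nr5a2BiD the lowest. The Ptpn5 member, at the start site of another annotated gene 14.9 kb from that of Ptpn5, had 22, 50, 55 and 65 tags. The Ehbp1 member, in an intron, had 38, 23, 71 and 57 tags. None of the 10 had an NR5A or NANOG match at its summits, 1 (Fndc3b) had an AP-1 match and 4 had a TEAD match (Cggbp1, Pcgf5, Ehbp1 and Sema5a).

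The strongest member of each combination of forms was examined next. The NanogBiD and native Nr5a2 class was led by the AA467197 member, on chromosome 2 from 122654033 to 122656537, with 32 tags in NanogBiD and 40 in native Nr5a2, whose NR5A sequence is shown above. The class of native forms only was led by a member in an intron near Pigu, an enzyme gene of glycolipid anchor synthesis, with 14 tags in Nanog and 30 in Nr5a2. The class of BiD forms only was led by a member in an intron near Filip1, with 50 tags in NanogBiD and 18 in Nr5a2BiD. The class with NanogBiD and both Nr5a2 forms was led by the Ing1 member, with 37, 60 and 40 tags. The leading members with Nanog in 1 form and Nr5a2 in 1 form had summits 112 bp (Filip1) to 923 bp (Pigu) apart.

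Nanog and Nr5a2 summits were often close but seldom coincided as forms of 1 factor did. The nearest pair of a Nanog and an Nr5a2 summit was at a median of 120 bp (113 to 125) in the 7703 members, with quartiles of 31 and 369 bp. It was within 50 bp in 32.6% and over 300 bp in 30.2%. Between single libraries the median was 115 bp for Nanog to Nr5a2BiD, 155 bp for NanogBiD to Nr5a2BiD, 173 bp for Nanog to Nr5a2 and 215 bp for NanogBiD to Nr5a2. Within a factor it was 48 bp for Nanog to NanogBiD and 34 bp for Nr5a2 to Nr5a2BiD. All 4 distances between factors were thus longer than both distances within a factor, with intervals that did not overlap. The sets of members differed. Distances within a factor came only from members with both of its forms (3647 for Nanog, 4889 for Nr5a2), where its peaks ranked higher. The part of this in the difference was not tested.

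**Figure D4:**
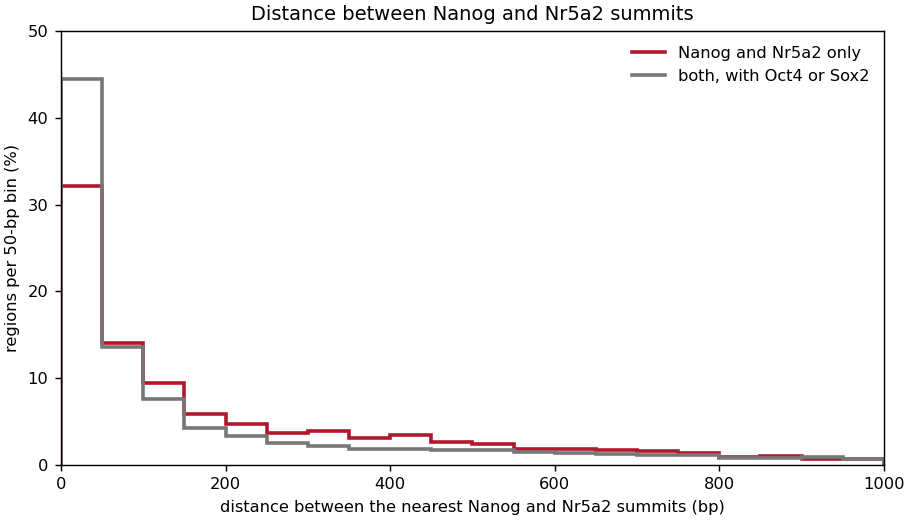
Share of regions (vertical axis, percent per bin of 50 bp) by the distance between the nearest Nanog and Nr5a2 summits (horizontal axis, bp, cut at 1000), for regions of Nanog and Nr5a2 only and for regions of both with Oct4 or Sox2. The first bin holds 32.1% of the former and 44.4% of the latter.

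In regions with Oct4 or Sox2 as well, the nearest pair was at a median of 66 bp (64 to 68). Single library pairs there ranged from 101 bp (Nanog to Nr5a2BiD) to 167 bp (NanogBiD to Nr5a2), each shorter than the same pair in members, while the distances within a factor were longer, at 52 and 41 bp. The nearest pair is also shorter where a region holds more summits, and the part of summit number in the difference was not tested. Leaving out Nr5a2BiD gave a median of 167 bp in members, and leaving out native Nanog 158 bp.

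The NR5A motif stood at Nr5a2 summits of members well above its flanks, but less often than where Nr5a2 was alone. A match within 50 bp was found at 635 of 6913 native Nr5a2 summits in members (9.19%, 8.51 to 9.89), against 1.10% in windows of the same size 500 bp to either side. It was found at 418 of 5883 Nr5a2BiD summits (7.11%, 6.46 to 7.79), against 1.17%. Nr5a2 alone gave 13.0% and 10.2%, regions with Oct4 or Sox2 gave 6.32% and 4.18%, and all peaks of the libraries gave 11% and 7.89%. Members were thus between Nr5a2 alone and regions of both factors with Oct4 or Sox2 in both libraries, with intervals that did not overlap. Nr5a2 regions with Oct4 or Sox2 and without Nanog gave 10.96% (10.5 to 11.5) for native Nr5a2, above members. For Nr5a2BiD they gave 8.13% (7.64 to 8.65), with an interval that overlapped that of members, as did that of all Nr5a2BiD peaks. By score, the NR5A share was 8.62%, 9.84%, 8.85% and 9.43% from the lowest to the highest 25% of native Nr5a2 scores, with intervals that overlapped. In Nr5a2BiD it was 5.24% (4.16 to 6.50) in the lowest 25%, then 7.27%, 8.36% (7.0 to 9.89) and 7.55%, and the lowest and the third of these groups had intervals apart. By form, the NR5A share was 9.57% in members with native Nr5a2 only and 3.05% (2.03 to 4.37) in members with Nr5a2BiD only. At promoters it was 7.20% and elsewhere 9.63% of native Nr5a2 summits.

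The NR5A motif was also found at Nanog summits of members, at 1.91% in Nanog (106 of 5536) and 1.91% in NanogBiD (113 of 5917). Their flanks gave 1.63% and 1.88%, so that the share was near that of the surrounding sequence. Nanog alone gave 0.359% and 0.442%, below its flanks of 0.801% and 0.934%. Regions with Oct4 or Sox2 gave 0.972% and 0.916%, also below their flanks. Members had the highest NR5A share at Nanog summits of these kinds of region, with intervals (1.57 to 2.31 and 1.58 to 2.29) apart from the others. This share went with the distance between the summits. Windows of summits within 100 bp of each other share bases, so that 1 match can count at both. Where the nearest Nanog and Nr5a2 summits were within 100 bp, NR5A was at 2.98% (2.39 to 3.68) of Nanog and 3.41% (2.75 to 4.17) of NanogBiD summits. Where they were over 100 bp apart, it was at 0.782% (0.484 to 1.19) and 0.678% (0.425 to 1.02), below flanks of 2.10% and 2.4%. Of the 776 members with an NR5A match at an Nr5a2 summit, 128 had one at a Nanog summit as well. These were 124 of 278 with the summits within 100 bp and 4 of 498 (0.803%) with the summits farther apart, beside 0.825% of the 3635 members with summits farther apart and no match at an Nr5a2 summit.

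The NANOG motif was rare, and more frequent at NanogBiD than at native Nanog summits. It was found at 89 of 5536 native Nanog summits (1.61%, 1.29 to 1.97) and at 166 of 5917 NanogBiD summits (2.81%, 2.4 to 3.26), with flanks of 0.885% and 0.676%. Nanog alone gave 2.37% and 3.64%, and regions of both factors with Oct4 or Sox2 gave 1.15% and 1.59%. Nanog regions with Oct4 or Sox2 and without Nr5a2 gave 1.69% (1.53 to 1.86) and 2.39% (2.20 to 2.60), with intervals that overlapped those of members. Among members with Nanog in 1 form, the share was 0.815% (0.457 to 1.34) for native Nanog and 3.01% (2.34 to 3.81) for NanogBiD. In the highest 25% of NanogBiD scores it was 4.59%, against 2.10% to 2.30% in the lower 3 groups of the same size. At Nr5a2 summits of members the share was 0.940% in native Nr5a2 and 0.952% in Nr5a2BiD, at the level of the flanks.

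**Figure D5:**
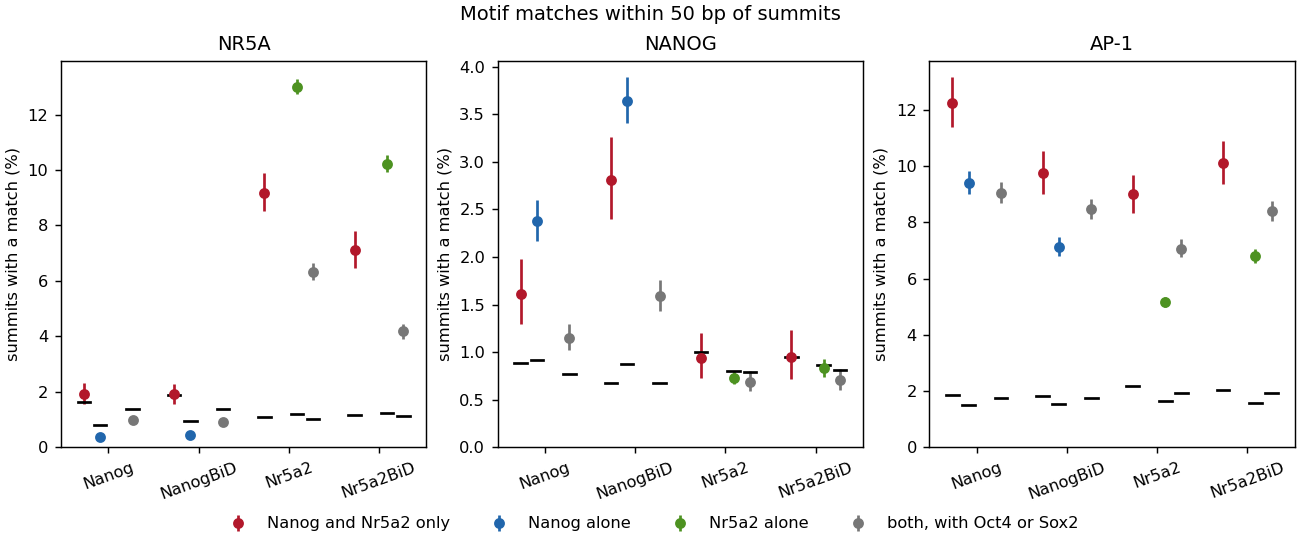
Share of summits with an NR5A, NANOG or AP-1 match within 50 bp (vertical axes, percent, with different scales) in the Nanog, NanogBiD, Nr5a2 and Nr5a2BiD libraries (horizontal axes), for 4 kinds of region. Points carry exact 95% intervals and short black lines give the share 500 bp away; regions of Nanog and Nr5a2 only have the highest AP-1 share of the 4 kinds plotted in each library, from 9.0% to 12.3%.

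The AP-1 motif was more frequent in members than in regions of 1 factor alone and in regions of both factors with Oct4 or Sox2, in all 4 libraries. It was found at 12.3% (11.4 to 13.2) of native Nanog, 9.75% (9.01 to 10.5) of NanogBiD, 10.1% (9.35 to 10.9) of Nr5a2BiD and 9.0% (8.33 to 9.70) of native Nr5a2 summits, against 1.83% to 2.19% in the flanks. Regions of 1 factor alone gave 9.41%, 7.13%, 6.80% and 5.16% in this order, and regions with Oct4 or Sox2 gave 9.05%, 8.47%, 8.41% and 7.07%. Intervals of members and of regions of both factors with Oct4 or Sox2 did not overlap in any library. This did not extend to Nanog regions that held Oct4 or Sox2 peaks and no Nr5a2 peak, where AP-1 was at 11.5% (11.1 to 11.9) of native Nanog and 10% (9.65 to 10.4) of NanogBiD summits, with intervals that overlapped those of members. In Nr5a2 regions with Oct4 or Sox2 and without Nanog, the AP-1 share was 6.84% (6.44 to 7.25) for native Nr5a2 and 8.34% (7.83 to 8.86) for Nr5a2BiD, both below members. Whole lists gave 10.2%, 8.65%, 7.76% and 6.07% in the order above. Among members with Nanog in 1 form, AP-1 was at 12.3% of native Nanog and 6.03% of NanogBiD summits, the opposite order to the NANOG motif. Among members with Nr5a2 in 1 form it was at 6.22% of native Nr5a2 and 8.27% of Nr5a2BiD summits, with intervals that overlapped.

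TEAD and RUNX motifs were also above their flanks in members. TEAD (CATTCCA or CATTCCT) was at 11.4% of native Nanog, 9.48% of NanogBiD, 7.39% of native Nr5a2 and 9.25% of Nr5a2BiD summits of members, with flanks of 3.61% to 4.25%. RUNX (AACCACA) was at 6.99%, 7.44%, 2.99% and 4.52%, with flanks of 1.88% to 2.38%. Unlike AP-1, neither was more frequent at Nanog summits of members than in Nanog alone. There TEAD was at 13.0% of native Nanog and 10.1% of NanogBiD summits, and RUNX at 9.53% and 10.1%. Both were more frequent in members than in Nr5a2 alone. There TEAD was at 5.15% of native Nr5a2 and 6.58% of Nr5a2BiD summits, and RUNX at 2.14% and 2.78%. The octamer (ATGCAAAT) and SOX (CCATTGTT) motifs, which belong to the excluded factors, were at 0.217% to 0.442% and 0.135% to 0.221% of summits. Their flanks gave 0.376% to 0.497% and 0.296% to 0.391%, and only the octamer at Nr5a2BiD summits (0.442%, flanks 0.408%) was above them. In whole lists, which include the regions with Oct4 or Sox2 peaks that the rule left out, the octamer was at 0.368% to 0.700%. The CTCF motif was at 0.237% to 0.477%, above its flanks of 0.0542% to 0.0940%. This was 3.5 to 5.08 times the flanks in members, beside 3.80 to 5.13 times in whole lists.

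Matches were spread over different members. An NR5A match at an Nr5a2 summit was found in 776 members (10.1%), a NANOG match at a Nanog summit in 201 (2.61%) and an AP-1 match at either in 1463 (19%). NR5A, NANOG and AP-1 together were found in 5 members. None of the motifs searched was at a summit in 3791 members (49.2%). The NANOG share was 2.71% (1.68 to 4.11) in members with NR5A and 2.60% in those without, and the AP-1 share 16.9% against 19.2% with intervals that overlapped. The distance between Nanog and Nr5a2 summits differed by motif. It was at a median of 77 bp (69 to 86) in members with AP-1, 196 bp (167 to 224) in members with NR5A, 192 bp (141 to 250) in members with NANOG and 127 bp (120 to 134) in members with none of the motifs searched.

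Members lay mostly away from promoters. The highest-scoring summit was within 2 kb of an annotated start site in 1355 members (17.6%, 16.7 to 18.5), beside 14.7% of all regions. It was in an intron in 42.8%, between genes in 36.9% and in an exon in 2.74%. Nanog alone gave 10.6% at promoters, Nr5a2 alone 15.5% and regions with Oct4 or Sox2 42.6%. With the 20000 highest-scoring peaks of each list, the promoter share of the 2128 members was 40.5%. Among the forms, the share ran from 9.03% in the native Nanog and Nr5a2BiD class to 25.2% in the NanogBiD and native Nr5a2 class. Members with NanogBiD and without native Nanog had 17.0% to 25.2% at promoters, and members with native Nanog and without NanogBiD 9.03% to 17.9%. The median GC content within 50 bp of the summits was 46.5% for Nanog, 47.5% for NanogBiD, 50.5% for Nr5a2 and 49.5% for Nr5a2BiD. Members were found on all chromosomes but Y. Autosomes held 2.56 (chromosome 3) to 4.18 (chromosome 11) members per Mb, and chromosome X held 171 members or 1.0 per Mb, which was 1.98% of its regions. A single member lay in the Nr5a2 gene, in an intron, and none lay in the Nanog gene or on an exon of either, where the delivered vectors carry sequence.

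The choice was then made on the 4 native libraries alone and examined in the 4 BiD libraries, which it had not used, and the other way around. Native Nanog and native Nr5a2 met without native Oct4 or Sox2 in 10088 regions. NanogBiD had a peak in 76.3% of these, beside 72.9% of all regions with a native Nanog peak. Nr5a2BiD had a peak in 78.3%, beside 60.9% of all regions with a native Nr5a2 peak. Both had a peak in 60.1% (59.1 to 61), beside 11% of all regions with a native peak and 80.2% of regions where native Nanog and Nr5a2 met with Oct4 or Sox2. The 11% includes regions without a native Nanog or Nr5a2 peak, so its distance from 60.1% follows in part from the choice. The absence of Oct4 and Sox2 did not carry over in this direction. A peak of Oct4BiD or Sox2BiD was present in 53.3% of the 10088 regions, against 49.6% of all regions with a native peak, and 2417 (24.0%) met the full rule.

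In the reverse direction, NanogBiD and Nr5a2BiD met without Oct4BiD or Sox2BiD in 4777 regions. Native Nanog had a peak in 69.0% of these, beside 70.4% of all regions with a NanogBiD peak, and native Nr5a2 in 85.2%, beside 86.3% of all with an Nr5a2BiD peak. Both had a peak in 57.3% (55.9 to 58.7), beside 9.77% of all regions with a BiD peak and 81.4% of regions where NanogBiD and Nr5a2BiD met with Oct4BiD or Sox2BiD. The 9.77% likewise includes regions without a NanogBiD or Nr5a2BiD peak, which the choice left out. Native Oct4 or Sox2 was present in 9.55%, against 33.2% of all regions with a BiD peak, and the same 2417 regions (50.6%) met the full rule. The 33.2% includes regions with Oct4BiD or Sox2BiD peaks, which the choice left out, so the lower share follows in part from the choice. The BiD lists of Oct4 and Sox2 were longer than the native ones, with 93978 and 120594 against 54794 and 58162 peaks. The part of list length in the difference between the directions was not tested.

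Genes near members were counted within 100 kb of any start site of a gene. At least 1 member was near 11432 of 21951 protein-coding genes (52.1%), with a median of 1 member per gene, so that a member near a gene was the common case. Members were 2.85% of the pairs of a protein-coding gene and a region within that distance. The gene lists below are compared with these shares as a description. Neighbouring genes share members, and no test was made. Tags are not scaled to depth, and their medians over all members were 15 in Nanog, 18 in NanogBiD, 22 in Nr5a2 and 21 in Nr5a2BiD. More tags in 1 library than in another near a gene are therefore no measure of stronger binding.

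Of 12 lipid and steroid genes known as targets of Nr5a2, 9 (75%) had a member, with a median of 2, and members were 5.59% of the regions near these genes. The most were near Cyp8b1, the sterol hydroxylase that sets the mix of bile acids, with 7, and near Nr0b2, the corepressor SHP that feeds back on Nr5a2, with 5. The strongest Cyp8b1 member, 25.9 kb away on chromosome 9 from 121889617 to 121891170, had 18 tags in Nanog, 16 in NanogBiD, 55 in Nr5a2 and 43 in Nr5a2BiD. The Scarb1 member sat 0.392 kb from the start site of this HDL receptor gene, with 9, 16, 46 and 38 tags. At both, the Nr5a2 libraries had more tags than the Nanog libraries. The Cyp11a1 member, 74.2 kb from the gene of the first enzyme of steroid synthesis, had 13 tags in Nanog, 71 in Nr5a2, 53 in Nr5a2BiD and no NanogBiD peak. The member shared by Abcg5 and Abcg8, the paired sterol transporters, went the other way for NanogBiD, with 27, 47, 33 and 34 tags. Cyp19a1, Slc10a1 and Star had no member.

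Of 26 pluripotency genes, 14 (53.8%) had a member, near the share of all genes, and members were 2.25% of the nearby regions. The Esrrb member, in an intron of this orphan nuclear receptor gene on chromosome 12 from 86482674 to 86485016, had 12 tags in NanogBiD, 78 in native Nr5a2 and 46 in Nr5a2BiD, and no native Nanog peak. The NanogBiD and the nearest Nr5a2 summit there were 938 bp apart. The Tet1 member, 1.55 kb from a start site of this enzyme that oxidises methylated cytosine, had 10, 26, 36 and 22 tags. The Sall4 member, 72.0 kb from this zinc finger gene, had 9, 14, 40 and 40 tags. The Klf2 member, 63.9 kb away, had 9 tags in NanogBiD, 48 in Nr5a2 and 26 in Nr5a2BiD. Members near Tfcp2l1 (13, 15, 10 and 16 tags) and Lin28a (26, 13, 26 and 25 tags) had no such excess of Nr5a2 tags. Pou5f1, Sox2, Klf4, Klf5, Prdm14, Zfp42 and 6 others had no member. Of 9 genes that the study names as helpers or targets of NanogBiD, Sall4, Esrrb and Sox15 had a member (33.3%), and members were 1.47% of the nearby regions. The Sox15 member lay 1.53 kb from the start site, with 20 tags in NanogBiD, 28 in Nr5a2 and 21 in Nr5a2BiD.

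Of 14 nuclear receptor genes, 10 had a member (71.4%), with members at 4.58% of the nearby regions. The lists share genes, and Nr0b2, with 5 members, was counted here and among the lipid and steroid genes. Rxra, the common partner of many nuclear receptors, had 5, the strongest with 22, 19, 56 and 41 tags. The strongest Nr4a1 member had 32, 38, 61 and 66 tags and lay 97 kb away, and another was 0.292 kb from the start site. The Rara member, 1.81 kb from the start site of this retinoic acid receptor gene, had 22 tags in Nanog, 26 in NanogBiD and 34 in Nr5a2BiD, with no native Nr5a2 peak.

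Of 18 genes of AP-1, TEAD and RUNX proteins and their cofactors, 15 (83.3%) had a member, with a median of 1 and members at 3.31% of the nearby regions. Tead1 had 6 and Fos, Junb and Runx1 had 3 each. The strongest Runx1 member, in an intron, had 36, 34, 40 and 26 tags, and the Junb member, whose NR5A match is shown above under its nearest gene Rnaseh2a, had 11 tags in Nanog, 48 in Nr5a2 and 51 in Nr5a2BiD. Of 20 fibroblast and mesenchymal genes, 14 (70%) had a member, with members at 2.91% of the nearby regions. The Vim member, 16.8 kb from this intermediate filament gene, had 26, 53, 35 and 27 tags and the Col1a1 member 20, 33, 37 and 18. The Snai2 member, 30.4 kb from this gene of a mesenchymal repressor, had 47 tags in Nanog and 31 in NanogBiD but 15 in Nr5a2BiD and no native Nr5a2 peak. The Prrx1 member had 16, 21, 54 and 46 tags, the opposite order.

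Of 15 epithelial genes, 8 (53.3%) had a member, with members at 3.76% of the nearby regions. Cdh1, the E-cadherin gene, had 5 and Grhl2, an epithelial transcription factor gene, had 4. The Esrp2 member, 0.096 kb from the start site of this epithelial splicing factor gene, had 15, 19, 49 and 42 tags, and the strongest Cdh1 member, in an intron, had 13, 19, 38 and 23 tags. Of 11 BAF subunit genes, 5 (45.5%) had a member, with 3 near Smarcd3 and members at 1.72% of the nearby regions. Ss18, the source of BiD, and Smarca4, which encodes BRG1, had none.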

How the data were processed

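The 8 Flag CUT&Tag libraries of MEFs at day 3 gave 8 peak lists and 8 summit lists, 1 of each per group. According to the methods of the study, trimming was done by the authors in Trim Galore 0.6.4 and alignment to mm10 in bowtie2 2.4.5. SAMtools 1.16.1 served to drop mitochondrial and repetitive reads and those of mapping quality under 30. Peaks were called by MACS 1.4.2, which kept 1 tag per position and shifted tags by a preset 25 bp, and a control library is not mentioned. The methods say that replicates were merged before calling, while the reporting summary says that the experiment was done once, so whether a list pools replicates is not known. The score of a peak is the authors' deposited value, 10 times the negative log10 of the p-value, and the height of a summit is the deposited signal in tags. Neither is scaled to depth, and depth can enter the number of peaks and their scores. The lists hold no read totals, and those of the study's reporting summary were not used here. Removal of repetitive reads can leave repeats and near-identical gene copies without peaks. Repeats were still present: on average 8.80% (native Nanog) to 10.8% (native Nr5a2) of bases within 50 bp of member summits were marked as repeats. Whether the matches shown lie in repeats was not examined.

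Peaks were merged as described in the results. Of 661009 peaks, 110 were off the placed chromosomes and entered no motif or gene count. Motifs were read from GRCm38 (the assembly behind mm10) within 50 bp of summits and 500 bp to either side. Genes were those of GENCODE M21. Intervals for shares are exact Clopper-Pearson intervals and intervals for medians exact order-statistic intervals, at 95%. Named members were the 10 strongest over all and with peaks of all 4 libraries, the strongest of each of the 9 form combinations and the strongest within 100 kb of each listed gene. Sequences were taken from those by the same strength, leaving out chromosome 18 and exons of untranslated regions. The members, gene lists and motifs were chosen with earlier results of these data known, and nothing here is independent support for a pattern. The region, distance and motif counts were tested on simulated peaks and sequences. Software was Python 3.11.15 with SciPy 1.17.1, pandas 2.3.3, NumPy 2.4.6, pysam 0.24.0 and matplotlib 3.10.9. Alternatives were score and list-length limits, stricter overlap and exclusion, other windows and distances, and the omission of each library.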

Additional observations from a re-analysis of the deposited data

How the results depend on the processing

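Of 134 recomputed values for 14 results, 85 stayed within the interval of the reported value or within 1.5 times of a count, and 49 moved. These are shares and counts with no test, and the causes were not tested. Keeping peaks with scores of at least 100 gave 4561 members, 48.7% with both Nanog forms, 62.2% with both Nr5a2 forms, a median summit distance of 130 bp, 20.3% at promoters, 39.0% of genes with a member, 62.4% of native-chosen regions seen in the BiD libraries and 55.5% of BiD-chosen regions seen in the native ones. Keeping the 20000 highest-scoring peaks of each list gave 2128, 49.3%, 60.6%, 108 bp, 40.5%, 26.9% and, for BiD-chosen regions, 50.4%, with NR5A at 7.41% of native Nr5a2 and 5.21% of Nr5a2BiD summits, NANOG at 1.17% of native Nanog and 1.99% of NanogBiD summits and AP-1 at 10.9% of native Nanog summits. Requiring the peaks to overlap by at least 50% of the shorter gave 48.7% and 65.4% with both forms, 93 bp and 61.8% of native-chosen regions. With windows of 25 bp and 100 bp, NR5A was at 4.14% and 14.3% of native Nr5a2 and 3.01% and 11.3% of Nr5a2BiD summits, NANOG at 0.741% and 2.91% of native Nanog and 1.39% and 4.48% of NanogBiD summits, and AP-1 at 6.54% and 21.1% of native Nanog and 4.90% and 17.1% of NanogBiD summits. A promoter distance of 500 bp gave 7.71%, and a gene distance of 20 kb gave 19.6% of genes.

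Leaving out each library in turn gave 5471 members (without NanogBiD) to 10845 (without Sox2BiD), a median distance of 109 to 167 bp, 15.6% to 23.0% at promoters (lowest without NanogBiD, highest without Oct4BiD), AP-1 at 10.8% to 13.2% of native Nanog and 8.64% to 11% of NanogBiD summits, NANOG at 1.41% to 1.67% and 2.52% to 2.85% of the same, and NR5A at 6.67% to 7.16% of Nr5a2BiD summits and 8.63% to 9.38% of native ones. No paired analysis was possible because each group has 1 library and the labels carry no replicate numbers. Depth, which is not in the lists and was not used here, limits every statement that a peak is absent, including the absence of Oct4 and Sox2 that defines these regions.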
